A study of Mus musculus with 12 samples.

Results

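The transcripts described here are those of 10 m6A reader genes, *Ythdf1*, *Ythdf2*, *Ythdf3*, *Ythdc1*, *Ythdc2*, *Igf2bp2*, *Igf2bp3*, *Hnrnpa2b1*, *Hnrnpc* and *Fmr1*, out of 54446 genes counted. They were chosen by name and matched by GENCODE symbol to Ensembl identifiers, and all 10 were found. The question was whether YTHDF2 protein was associated with its own mRNA and with the mRNAs of other readers, and whether local ionizing radiation (IR) of the tumor altered this.

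N6-methyladenosine (m6A) is a methyl mark placed on adenosines of mRNA, and readers are the proteins that bind it and decide what happens to the marked transcript. YTHDF2, a cytoplasmic reader, brings the CCR4-NOT deadenylase to its targets and so shortens their life. In tumors, CD11b+ myeloid cells include monocytes, macrophages, neutrophils and their immature suppressive forms (MDSCs).

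The data are 12 RNA immunoprecipitation sequencing (RIP-seq) libraries from CD11b+ myeloid cells of MC38 tumors, MC38 being a mouse colon carcinoma line grown in mice. Tumors were left unirradiated (Ctrl) or received 20 Gy, and cells were taken 3 days later. Each condition had 3 pools, and each pool gave an Input library, which measures transcript abundance, and an IP library made with an anti-YTHDF2 antibody. Mice of both conditions were WT, which in this study means that they carried floxed *Ythdf2* alleles without Cre, so no group here lacks YTHDF2 and no mock IP was used here as a control. Per the methods the mice were 8 to 10 weeks old, cells of 5 mice went into each pool, and 1 part in 10 of the lysate served as Input. The methods call the pools technical replicates, so p-values measure the spread between these pools, which may be partly technical. The sample records and the methods name different antibodies, and the records name mRNA where the methods name a total RNA kit.

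Library totals on genes spanned 34445784 to 40008607 for Ctrl Input, 37940948 to 42382532 for IR Input, 28919897 to 33882664 for Ctrl IP and 27852948 to 30244160 for IR IP. Of the uniquely aligned reads, the share that the counting gave to no gene was 24.6 to 27.0% over all Input libraries. It was 41.8 to 42.7% over the Ctrl IPs and 49.4 to 54.1% over the IR IPs. Whether reads in introns fall in this share is not given in the sources used here. The lowest count of any reader gene in any library was 74 (*Ythdc2* in a Ctrl IP), and the highest was 28977 (*Hnrnpa2b1* in a Ctrl Input), so all 10 genes entered every test. *Itgam*, which encodes the sorting marker CD11b, averaged 943 CPM (counts scaled to a common library total) in the Ctrl Inputs and 1717 CPM in the IR Inputs. The 5 T cell markers summed to at most 1.92 CPM in any Input. *Arg1*, a marker of suppressive myeloid cells, was at only 0.27 CPM in the Ctrl Inputs and 0.66 CPM in the IR Inputs. In the paper's single-cell data *Arg1* was high in most clusters of monocytic MDSCs from MC38 tumors. The reason for this difference was not tested.

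The m6A mark is most often found in sequences such as GGACT, in which the adenosine carries the methyl group, and frequently near the stop codon. The match nearest to the stop codon was therefore taken from 1 main transcript per gene (GENCODE M21, build mm10). Matches whose window crossed an exon junction or an end of the transcript were passed over. In the lines that follow, GGACT is in capitals with 12 bases on either side, on the sense strand of the transcript. Only this strand was searched, since the reads come from RNA.
*Ythdf2*: gcaagaaaattaGGACTttttttcttaat
*Ythdf1*: gaagtcccctgtGGACTacggcaccagcg
*Ythdf3*: caaggcatgactGGACTgaaaattggtgg
*Igf2bp2*: atcttttcgactGGACTgtctgtgcttcc
*Igf2bp3*: tgtggaaacatcGGACTtccctttgccct
*Hnrnpc*: ctcacgtgagtgGGACTgttacaacacga
*Fmr1*: ttttcctgaattGGACTatataactcagc

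The *Ythdf2* window lies at chr4:132186830-132186858 on the minus strand, in the 3' UTR, with its adenosine 80 bases past the end of the stop codon. *Ythdf2* was the only one of the 10 readers with GGACT within 200 bases of that point, where it had 2 matches. Of the main transcripts of 21866 coding genes, 35.7% had such a match and 86.8% had GGACT anywhere. The window of *Ythdf1* (chr2:180910956-180910984, minus strand) is in coding sequence, 310 bases before the end of the stop codon, and that of *Ythdf3* (chr3:16204255-16204283, plus strand) is also coding, 1179 bases before it. The main transcripts of *Ythdc1* and *Hnrnpa2b1* held no GGACT. That of *Ythdc2* held 3, none of them within 200 bases of the end of the stop codon, and its window is not printed here. A match is a string of letters and not a measured methylation site, and no methylation data were used here.

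YTHDF2 IP libraries of unirradiated tumors held more of 2 reader transcripts than the matching Inputs, those of *Ythdf2* itself and of the nuclear reader *Ythdc1*. They held less of 6: *Ythdf3*, *Ythdc2*, *Igf2bp2*, *Hnrnpa2b1*, *Hnrnpc* and *Fmr1*. The remaining 2, *Ythdf1* and *Igf2bp3*, did not pass the test (edgeR's quasi-likelihood test on counts, Benjamini-Hochberg adjusted p under 0.05 over all 17416 genes tested). Among all genes tested, 34.1% were higher and 34.6% lower in the IP, so 2 of 10 higher and 6 of 10 lower readers are to be read against a background in which most genes differ. The median log2 fold change was -0.31 over the 10 readers and 0.018 over all genes. In IR, 2 were higher (*Ythdf2* and *Ythdc1*), 4 lower and 4 not called, against 32.1% higher and 30.5% lower among 18650 genes, with medians of -0.21 and 0.10.

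**Figure D1:**
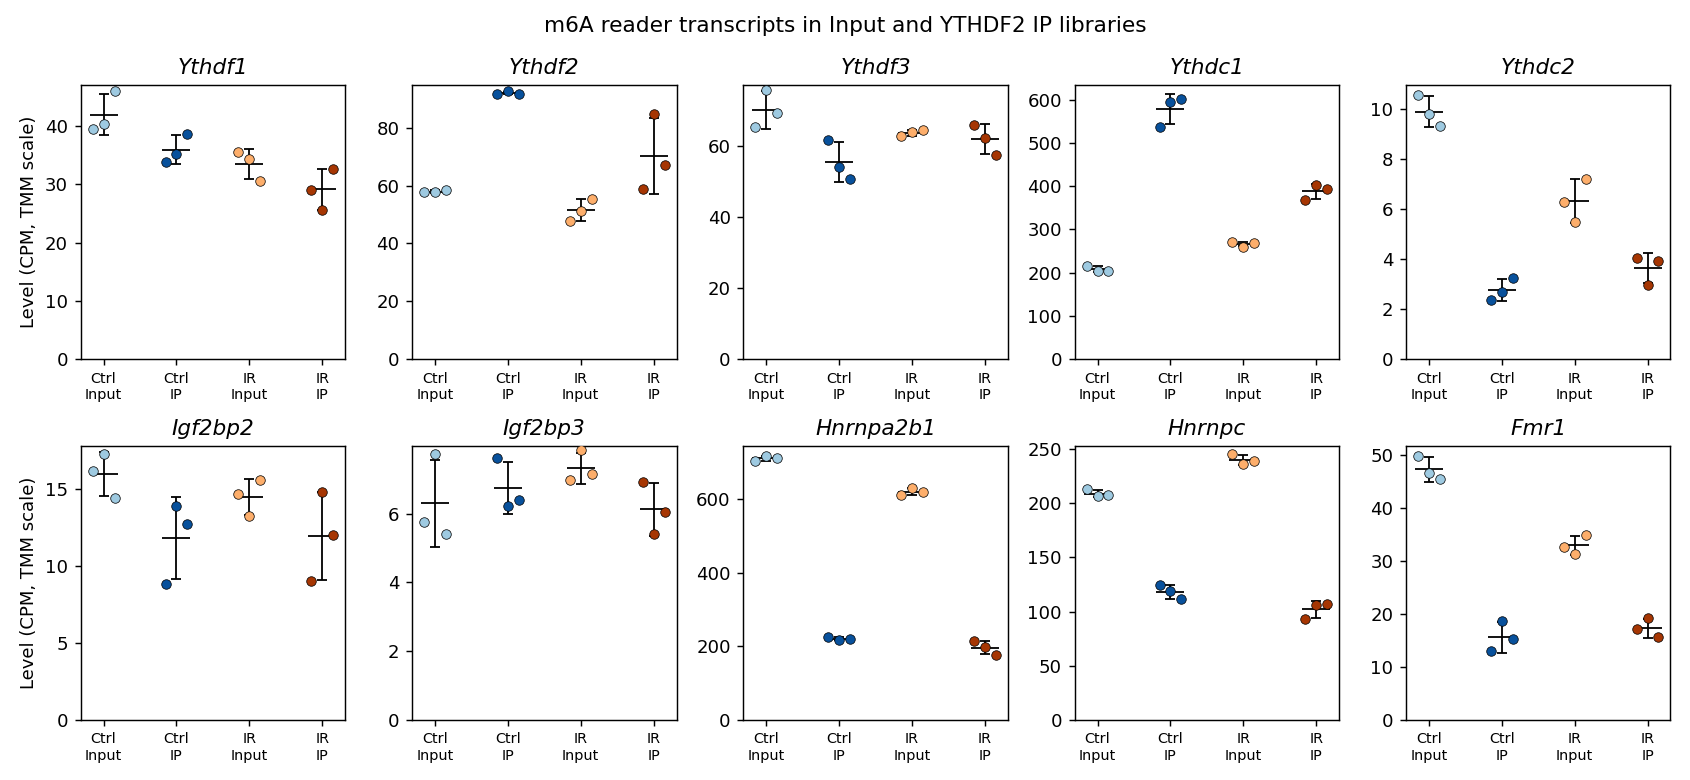
Level of each reader transcript in the 12 libraries, in CPM on the TMM scale, with 1 panel per gene, 1 point per library and a bar at the mean of each group of 3 pools. *Ythdf2* and *Ythdc1* stand higher in the IP than in the Input in both conditions, and *Ythdc2*, *Hnrnpa2b1*, *Hnrnpc* and *Fmr1* stand lower.

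The YTHDF2 IP held more of the transcript that encodes YTHDF2 itself. *Ythdf2* (ENSMUSG00000040025.17, chr4:132184912-132212303, minus strand, mm10) measured 57.7, 57.6 and 58.5 CPM in the Ctrl Inputs and 91.8, 92.6 and 91.9 CPM in the Ctrl IPs. The groups did not overlap, and the 3 pools of each lay within 1 CPM of each other. The log2 fold change was 0.74 ± 0.055 (SE), a 1.67-fold higher level in the IP (edgeR adjusted p = 1.44e-09). This placed *Ythdf2* at percentile 70.7 of all genes tested, above most genes but inside the range that many genes reach.

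After IR the *Ythdf2* Inputs were at 47.7, 51.4 and 55.3 CPM and the IPs at 58.8, 84.8 and 67.1 CPM. The IP libraries again lay above the Inputs, but they spread far more than in Ctrl, the second pool standing highest. The log2 fold change was 0.50 ± 0.12 (SE, edgeR adjusted p = 0.0043), at percentile 61.2. Per pool, log2(IP/Input) was 0.67, 0.68 and 0.65 in Ctrl and 0.30, 0.72 and 0.28 in IR. The change of IP/Input with IR was -0.22 ± 0.14 (SE) and did not pass (adjusted p = 0.306). Without the second IR pool it was -0.36 with an adjusted p of 0.0342, so 1 pool decides this call.

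The IR value of *Ythdf2* depended on how libraries were scaled. TMM, the scaling used here, sets the bulk of genes equal between libraries. With all uniquely aligned reads as the library size, reads given to no gene are counted too. The *Ythdf2* log2 fold change was then 0.23 in Ctrl (adjusted p = 0.0013) and 0.033 in IR (adjusted p = 0.850). The same scaling moved the median of all genes from 0.018 to -0.49 in Ctrl and from 0.10 to -0.37 in IR, a shift that the scaling gives to nearly all genes alike. With an offset for the length of each gene's main transcript, the IR value was 0.26 (adjusted p = 0.0994) and the Ctrl value 0.65 (adjusted p = 1.01e-08).

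**Figure D2:**
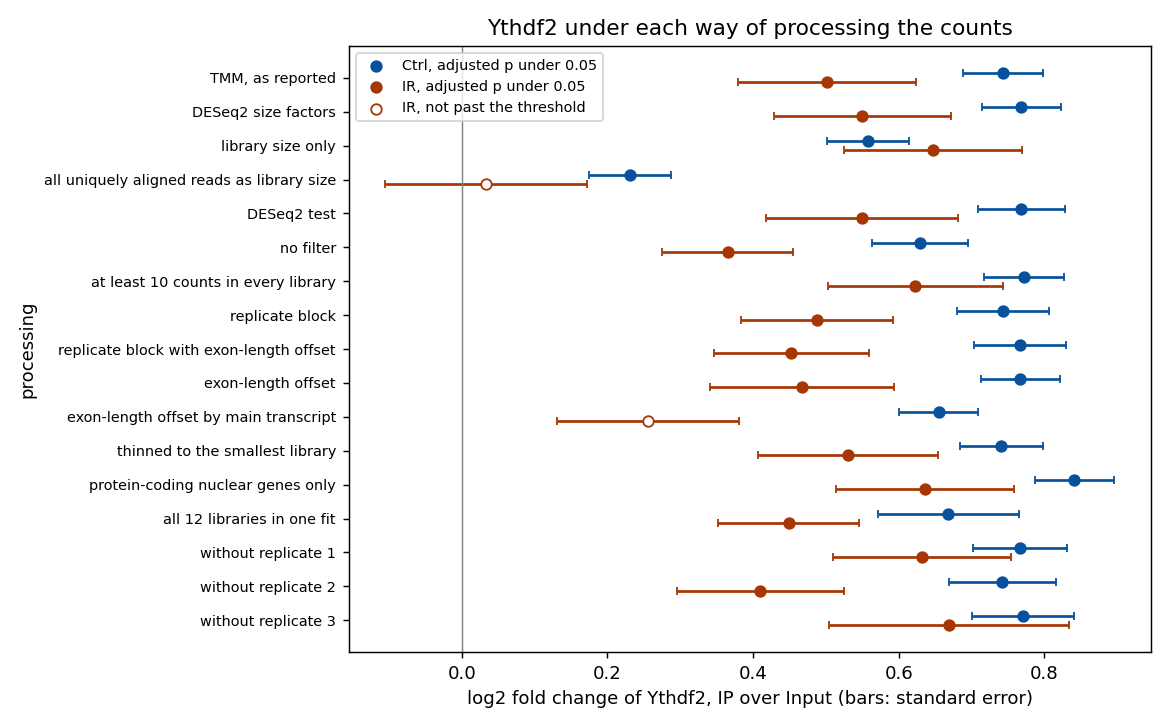
Log2 fold change of *Ythdf2* in the IP over the Input (x axis, bars: standard error) under each way of processing the counts (y axis), in Ctrl (blue) and IR (orange), with open points for values that missed an adjusted p of 0.05. The Ctrl values run from 0.23 to 0.84 and all pass, whereas 2 IR values, 0.033 and 0.26, miss the threshold.

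*Ythdf1* and *Ythdf3* encode the 2 cytoplasmic paralogs of YTHDF2, for which roles in translation and in shared decay of m6A mRNAs have been described. *Ythdf1* (chr2:180904377-180920949, minus strand) was at 39.5, 40.3 and 46.0 CPM in the Ctrl Inputs and 33.8, 35.2 and 38.7 CPM in the Ctrl IPs. All 3 IPs lay below the Inputs, by little, and the log2 fold change of -0.15 ± 0.083 (SE) did not pass (adjusted p = 0.118). It was called lower with library size alone (-0.34), with all uniquely aligned reads as library size (-0.66) and with no filter (-0.27). In IR the Inputs (35.5, 34.3 and 30.5 CPM) and IPs (29.1, 25.6 and 32.7 CPM) overlapped, with a log2 fold change of -0.15 ± 0.12 (SE, adjusted p = 0.304), and it was called lower with all uniquely aligned reads (-0.62) and with no filter (-0.28). Its change with IR was 0.027 ± 0.15 (SE, adjusted p = 0.937).

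*Ythdf3* (chr3:16183212-16217037, plus strand) was at 65.3, 75.9 and 69.4 CPM in the Ctrl Inputs and 61.8, 54.1 and 50.8 CPM in the Ctrl IPs. The IPs lay below the Inputs, with a log2 fold change of -0.26 ± 0.077 (SE, edgeR adjusted p = 0.00652). The call was lost without the second (-0.17) or the third (-0.19) Ctrl pool and with protein-coding nuclear genes only (-0.16). After IR the 2 fractions overlapped, at 62.7, 63.9 and 64.5 CPM in the Input and 66.0, 62.3 and 57.5 CPM in the IP, and the log2 fold change was 0.012 ± 0.076 (SE, adjusted p = 0.897). The change of IP/Input with IR was 0.30 ± 0.12 (SE, adjusted p = 0.0820) and did not pass. It was called higher in 7 alternatives, among them the DESeq2 test (0.35, adjusted p = 0.0193) and the fits without Ctrl pool 1 (0.43) or IR pool 3 (0.37).

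Of the 3 YTHDF transcripts, that of *Ythdf2* had the highest log2(IP/Input) in every pool. In Ctrl it exceeded that of *Ythdf1* by 0.89 ± 0.011 (SD, n = 3) and that of *Ythdf3* by 1.01 ± 0.23 (SD, n = 3). In IR the differences were 0.64 ± 0.48 and 0.48 ± 0.27 (SD, n = 3), with the second pool highest in both. *Ythdf1* and *Ythdf3* differed by 0.11 ± 0.23 in Ctrl and -0.16 ± 0.37 in IR (SD, n = 3), with single pools of both signs in each condition. These pairs were chosen after the values had been seen, so the differences are given as a description. An exact sign-flip test over the 6 pools, Ctrl and IR together, gave *Ythdf2* an adjusted p of 0.0625 against either paralog. The adjustment ran over 6 pairs of readers. For *Ythdf1* against *Ythdf3* the adjusted p was 0.875. The smallest unadjusted p this test can reach with 6 pools is 0.03125, which both *Ythdf2* pairs had. The values that chose the pairs also entered the test, so it cannot decide whether these transcripts differ.

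**Figure D3:**
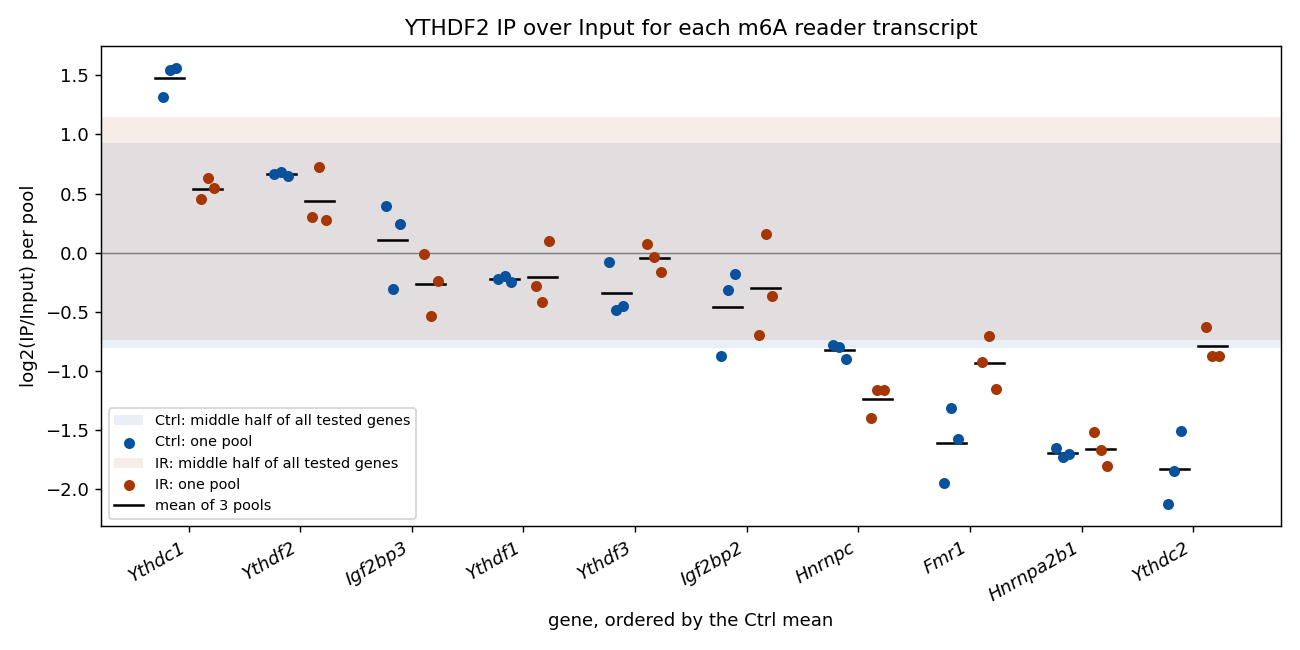
Log2(IP/Input) of each reader transcript (x axis, ordered by the Ctrl mean), with 1 point per pool in Ctrl (blue) and IR (orange) and a bar at the mean of 3 pools. The bands mark the interquartile range of the fitted log2 fold changes of all genes tested, -0.81 to 0.93 in Ctrl and -0.74 to 1.15 in IR. *Ythdc1* lies above the band in Ctrl and inside it in IR, *Hnrnpa2b1* lies below it in both, and *Ythdf2* lies inside it in both. *Ythdc2* and *Fmr1* lie below it in Ctrl, with pools on either side of its lower edge in IR. *Hnrnpc* lies below it in IR, with pools on either side of that edge in Ctrl.

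*Ythdc1*, which encodes the nuclear YTH reader that acts in splicing and export of m6A transcripts, had the highest IP/Input of the 10 in all 3 Ctrl pools. *Ythdc1* (chr5:86804221-86836659, plus strand) was at 216, 204 and 203 CPM in the Ctrl Inputs and at 538, 595 and 601 CPM in the Ctrl IPs. That is a log2 fold change of 1.55 ± 0.048 (SE), 2.93-fold (edgeR adjusted p = 8.02e-15), at percentile 86.1 of all genes. In IR the Inputs were at 270, 260 and 269 CPM and the IPs at 369, 402 and 392 CPM. IP and Input still did not overlap, but the log2 fold change was 0.60 ± 0.047 (SE, 1.51-fold, adjusted p = 8.61e-07).

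The IP/Input of *Ythdc1* therefore fell with IR, by 0.93 ± 0.068 (SE) on the log2 scale (interaction in edgeR over 12 libraries, adjusted p = 4.97e-09), and all 3 IR pools (0.45, 0.63 and 0.55) lay below all 3 Ctrl pools (1.32, 1.54 and 1.56). Both fractions contributed, since its Input level was higher and its IP level lower in IR. The exons annotated for *Ythdc1* cover 13651 bases when all transcripts are merged, while its main transcript has 2960 bases, and 631 of its exonic bases overlap *Gm43055* on the same strand. Its IR value turned to -0.14 with an offset for the merged exon length, stayed at 0.52 (called) with an offset for the main transcript's length, and was 0.12 (not called) with all uniquely aligned reads as library size, so the IR call rests on these choices. The fall with IR was called under every alternative run, and which *Ythdc1* transcripts the reads came from cannot be told from counts per gene.

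*Ythdc2* encodes an RNA helicase with a YTH domain, best known from the germ line. *Ythdc2* (chr18:44827746-44889724, plus strand) was a low transcript, at 10.5, 9.80 and 9.31 CPM in the Ctrl Inputs and 2.37, 2.68 and 3.24 CPM in the Ctrl IPs, so the IP held 3.40-fold less. Its log2 fold change was -1.77 ± 0.19 (SE, edgeR adjusted p = 2.13e-07). *Hnrnpa2b1* and *Fmr1* lay close to it, and without Ctrl pool 1 *Ythdc2* (-1.59) stood above *Hnrnpa2b1* (-1.62). In IR the Inputs were at 6.27, 5.47 and 7.20 CPM and the IPs at 4.04, 2.96 and 3.91 CPM, with a log2 fold change of -0.74 ± 0.25 (SE, adjusted p = 0.0239). The call was lost without any 1 of the IR pools (-0.76 to -0.61), with library size alone (-0.60) and with protein-coding nuclear genes only (-0.61). The change of IP/Input with IR was 1.04 ± 0.30 (SE, adjusted p = 0.0187), the 3 IR pools lying above the 3 Ctrl pools. It missed the threshold without Ctrl pool 1 (0.90) or 2 (1.03), with no filter (1.02), with the main-transcript offset (0.83) and with the replicate block joined to the merged exon offset (0.93).

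The log2(IP/Input) of *Ythdc1* exceeded that of *Ythdc2* by 3.30 ± 0.20 (SD, n = 3) in Ctrl and by 1.33 ± 0.23 (SD, n = 3) in IR. It exceeded that of *Ythdf2* by 0.81 ± 0.14 (SD, n = 3) in Ctrl, in 3 of 3 pools, whereas in IR the difference was 0.11 ± 0.18 (SD, n = 3), smaller than its spread and below 0 in the second pool. These pairs, too, were chosen after the values had been seen, so the same sign-flip test cannot decide on them. Its adjusted p was 0.0625 for *Ythdc1* against *Ythdc2* and 0.09375 for *Ythdc1* against *Ythdf2*.

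*Igf2bp2* and *Igf2bp3* encode paralogous RNA-binding proteins that stabilize m6A mRNAs, in contrast to YTHDF2. *Igf2bp2* (chr16:22059009-22163299, minus strand) was at 16.2, 17.2 and 14.4 CPM in the Ctrl Inputs and 8.79, 13.9 and 12.7 CPM in the Ctrl IPs. The first IP pool was lowest and the groups did not overlap, but the log2 fold change of -0.36 ± 0.15 (SE) passed only narrowly (adjusted p = 0.0489) and was lost under 7 alternatives, among them without Ctrl pool 1 (-0.15) or pool 2 (-0.43). In IR the Inputs (14.6, 13.2 and 15.6 CPM) and IPs (9.04, 14.8 and 12.03 CPM) overlapped (log2 fold change -0.22 ± 0.19, SE, adjusted p = 0.325).

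*Igf2bp3* (chr6:49085223-49214957, minus strand) was near 6 or 7 CPM in most libraries, from 5.40 to 7.84 CPM in the Inputs and from 5.40 to 7.61 CPM in the IPs. The log2 fold changes were 0.17 ± 0.19 (SE, adjusted p = 0.429) in Ctrl and -0.20 ± 0.21 (SE, adjusted p = 0.410) in IR, and neither passed. The change with IR was -0.36 ± 0.28 (SE, adjusted p = 0.439) for *Igf2bp3* and 0.16 ± 0.26 (SE, adjusted p = 0.749) for *Igf2bp2*. Of its exonic bases, 1529 overlap *Malsu1* on the opposite strand, and the strand option of the counting is not given in the sources used here, so its counts may include reads of that gene.

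The hnRNP genes encode abundant nuclear RNA-binding proteins proposed as indirect or structure-dependent readers of m6A. *Hnrnpa2b1* (chr6:51460932-51469894, minus strand) was at 704, 717 and 712 CPM in the Ctrl Inputs and only 224, 216 and 219 CPM in the Ctrl IPs. The log2 fold change was -1.62 ± 0.036 (SE, 3.07-fold lower, edgeR adjusted p = 1.18e-16), and only 9.33% of all genes tested lay lower. In IR it was 610, 630 and 619 CPM in the Inputs and 214, 198 and 177 CPM in the IPs, with a log2 fold change of -1.61 ± 0.064 (SE, adjusted p = 3.05e-09). The change with IR was 0.034 ± 0.071 (SE, adjusted p = 0.803).

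*Hnrnpc* (chr14:52073377-52104028, minus strand) was at 213, 207 and 208 CPM in the Ctrl Inputs and 124, 119 and 111 CPM in the Ctrl IPs (log2 fold change -0.75 ± 0.050, SE, edgeR adjusted p = 3.44e-10). In IR the gap widened, with Inputs at 246, 237 and 239 CPM and IPs at 93.0, 106 and 107 CPM (log2 fold change -1.18 ± 0.062, SE, adjusted p = 3.11e-08). The IP/Input of *Hnrnpc* fell by 0.41 ± 0.080 (SE, adjusted p = 8.15e-04) with IR, and the 3 IR pools (-1.40, -1.16 and -1.16) lay below the 3 Ctrl pools (-0.78, -0.80 and -0.90). With library size alone as the scaling, the change was -0.11 and not called. Copies of hnRNP genes elsewhere in the genome could share reads with both genes, which leaves their counts uncertain and was not tested.

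*Fmr1*, which encodes the translational repressor FMRP, a binder of m6A mRNAs, was at 49.8, 46.5 and 45.4 CPM in the Ctrl Inputs and 12.9, 18.7 and 15.2 CPM in the Ctrl IPs (chrX:68678541-68717963, plus strand). The log2 fold change was -1.52 ± 0.11 (SE, 2.87-fold lower, edgeR adjusted p = 1.74e-09). In IR the Inputs were at 32.6, 31.3 and 34.8 CPM and the IPs at 17.1, 19.2 and 15.6 CPM, with a log2 fold change of -0.88 ± 0.12 (SE, adjusted p = 8.18e-05). The IP/Input rose by 0.67 ± 0.17 (SE) on the log2 scale (adjusted p = 0.00802), with all IR pools above all Ctrl pools. The Input level was lower in IR while the IP levels of both conditions overlapped. Without Ctrl pool 1 the change was 0.51 and no longer called.

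Across the 10 readers the change of IP/Input with IR was thus called lower for 2 (*Ythdc1*, *Hnrnpc*) and higher for 2 (*Ythdc2*, *Fmr1*), against a background of 13.9% lower and 6.28% higher among 20720 genes. The median was 0.031 for the readers and -0.083 for all genes. With library size alone as the scaling, 4 readers were higher (*Ythdf3*, *Ythdc2*, *Hnrnpa2b1* and *Fmr1*) and 1 lower (*Ythdc1*), and the median of all genes moved to 0.22. Over all genes this scaling gave 2843 higher and 890 lower, against 1301 and 2881 with TMM.

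In the Input, which measures abundance, 6 reader transcripts were lower and 2 higher in IR than in Ctrl, against 23.9% lower and 21.0% higher among 16914 genes tested. *Ythdc2* fell by 0.72 ± 0.12 (SE, edgeR adjusted p = 2.37e-05), *Fmr1* by 0.60 ± 0.059 (SE, adjusted p = 3.39e-09), and *Ythdf1* by 0.41 ± 0.066 (SE, adjusted p = 1.18e-05). *Hnrnpa2b1* fell by 0.28 ± 0.028 (SE, adjusted p = 4.94e-09), *Ythdf2* by 0.25 ± 0.052 (SE, adjusted p = 2.96e-04) and *Ythdf3* by 0.22 ± 0.050 (SE, adjusted p = 6.67e-04). *Ythdc1* rose by 0.28 ± 0.035 (SE, adjusted p = 2.11e-07) and *Hnrnpc* by 0.12 ± 0.033 (SE, adjusted p = 0.00366). *Igf2bp2* (-0.22, adjusted p = 0.0621, and called at -0.29 without Ctrl pool 3 and -0.27 without IR pool 3) and *Igf2bp3* (0.14, adjusted p = 0.455) did not pass.

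For the 8 called transcripts, the 3 IR Inputs did not overlap the 3 Ctrl Inputs. When all 12 libraries shared 1 fit, *Ythdf2* (-0.17) and *Ythdf3* (-0.14) kept their direction but were not called, and *Ythdf3* was at -0.10 and not called with the main-transcript offset. The median log2 fold change was -0.23 over the readers and 0.0072 over all genes.

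Markers of cell types moved with IR in the same Inputs, where 21.0% of all genes tested were called higher and 23.9% lower. The summed level of 6 neutrophil markers was 5749 to 6479 CPM in Ctrl and 8100 to 8843 CPM in IR, with 4 of the 6 called higher and 0 lower. Of 8 myeloid markers 4 were called higher and 2 lower. Their sum went from 4026 to 4151 CPM in Ctrl to 5038 to 5076 CPM in IR. *Itgam* (log2 fold change 0.79) made up most of that rise, while *Csf1r* (-0.12) and the macrophage marker *Adgre1* (-0.24) were lower and *Lyz2* was at -0.011, not called. The 4 proliferation genes summed to 1211 to 1236 CPM in Ctrl and 889 to 902 CPM in IR, with *Mki67*, *Ccnb1* and *Cdk1* lower and *Top2a* not called. The 5 epithelial markers, which tumor cells could bring, summed to 4.54 to 5.37 and 4.93 to 6.79 CPM, with *Krt8*, *Krt19* and *Cldn4* at 3 counts or fewer in every Input. In any Input, the 4 NK cell markers summed to at most 0.72 CPM, the 4 erythroid genes to at most 1.68 CPM, the 5 fibroblast markers to 6.03 to 12.5 CPM and the 4 endothelial markers to 22.3 to 27.4 CPM. The part of these shifts in the reader values was not tested. In these bulk pools, fewer cells of a type and less RNA per cell cannot be told apart.

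**Figure D4:**
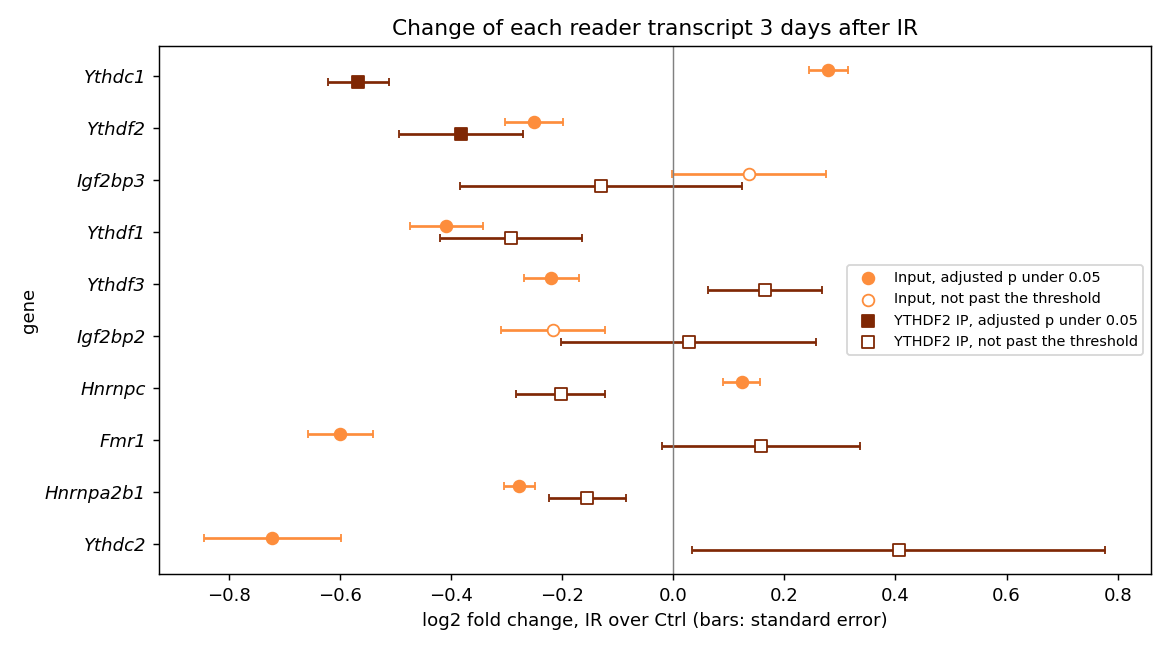
Log2 fold change of each reader transcript in IR over Ctrl (x axis, bars: standard error) in the Input and in the YTHDF2 IP, with filled marks past an adjusted p of 0.05 and open marks not past it. In the Input 6 readers are lower and 2 higher, and in the IP only *Ythdf2* and *Ythdc1* are called, both lower.

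In the IP libraries compared directly, 2 readers were lower in IR and 0 higher, against 9.85% lower and 6.12% higher among 19255 genes (edgeR). DESeq2 also called 0 readers higher, beside 1761 higher and 2046 lower over all genes. *Ythdc1* fell by 0.57 ± 0.055 (SE, adjusted p = 1.94e-06) and *Ythdf2* by 0.38 ± 0.11 (SE, adjusted p = 0.0275). All IR IPs of both genes lay below all Ctrl IPs. The *Ythdf2* call was lost, at a nearly equal fold, without any 1 of the Ctrl pools (-0.38, -0.37 and -0.38, adjusted p between 0.0806 and 0.0903). It was also lost without IR pool 1 (-0.26) or IR pool 3 (-0.34), and with library size alone as the scaling (-0.18). Without IR pool 2 it was kept at -0.53. *Hnrnpa2b1* (-0.15, adjusted p = 0.153), *Hnrnpc* (-0.20, adjusted p = 0.103) and *Ythdf1* (-0.29, adjusted p = 0.142) missed the threshold, and *Hnrnpa2b1* was called without IR pool 1 (-0.21). With all 12 libraries in 1 fit these 3 were called lower too, beside 2952 lower and 2125 higher of 20720 genes. With library size alone, *Ythdf3* was called higher (0.37) and *Ythdc1* lower (-0.36), beside 2638 higher and 839 lower over all genes. The part of the reads given to no gene, whose share was larger in the IR IPs, was not tested.

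Per kb of exon, the readers covered a wide range of abundance. In the Ctrl Inputs, *Hnrnpa2b1* had 108 ± 1.01 CPM per kb (SD, n = 3), *Hnrnpc* 48.4 ± 0.80 and *Ythdc1* 15.2 ± 0.50. The 3 YTHDF transcripts followed at 13.1 ± 0.999 for *Ythdf3*, 12.7 ± 0.10 for *Ythdf2* and 12.7 ± 1.07 for *Ythdf1* CPM per kb, and these did not differ beyond their spread. *Fmr1* had 5.27 ± 0.26, *Igf2bp2* 2.16 ± 0.19, *Ythdc2* 1.11 ± 0.070 and *Igf2bp3* 0.77 ± 0.15 CPM per kb (SD, n = 3). In the IR Inputs the order was the same except that *Igf2bp3* (0.90 ± 0.056) stood above *Ythdc2* (0.71 ± 0.098). Divided by the length of the main transcript instead, *Ythdc1* had 70.2 ± 2.30 CPM per kb in the Ctrl Inputs and *Hnrnpa2b1* 434 ± 4.08, so the level of these genes depends strongly on which length is used.

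The order was different in the IP. In the Ctrl IPs *Ythdc1* led with 42.4 ± 2.58 CPM per kb of exon, above *Hnrnpa2b1* (33.4 ± 0.62), *Hnrnpc* (27.3 ± 1.51) and *Ythdf2* (20.1 ± 0.096), and the single pools of these 4 did not overlap. *Ythdf1* (10.8 ± 0.75) and *Ythdf3* (10.4 ± 1.05) overlapped each other. In the IR IPs *Hnrnpa2b1* (29.8 ± 2.79) and *Ythdc1* (28.4 ± 1.25) overlapped, and *Ythdf2* had 15.4 ± 2.90 CPM per kb (SD, n = 3).

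**Figure D5:**
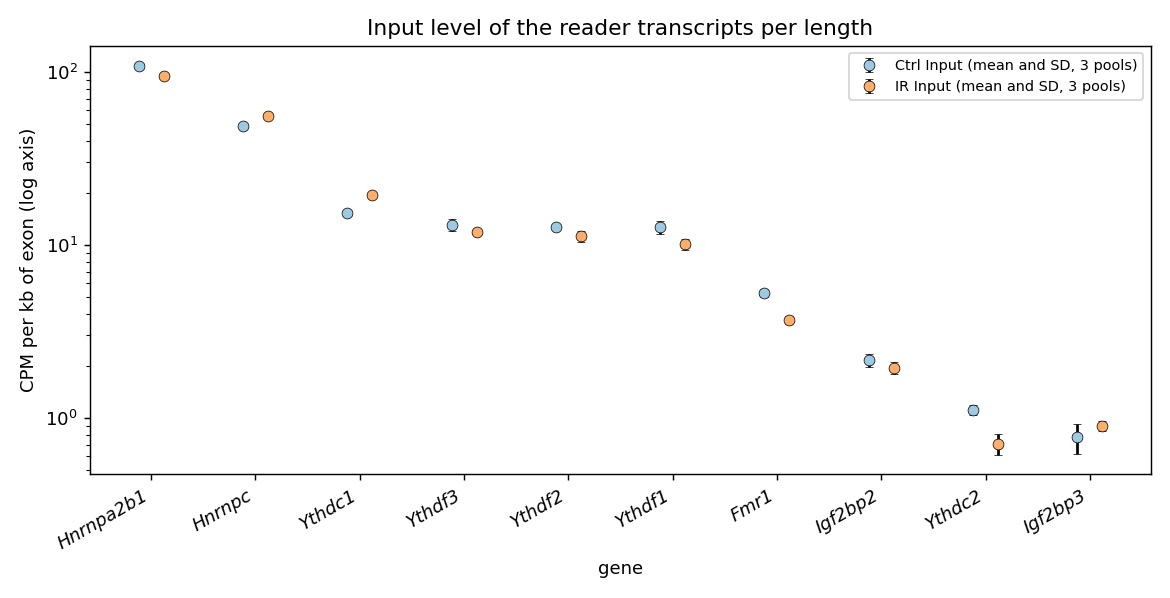
Input level of each reader transcript per kb of exon (log axis, mean and SD of 3 pools) in Ctrl and IR, ordered by the Ctrl mean. *Hnrnpa2b1* is highest at 108 CPM per kb in Ctrl, the 3 YTHDF genes lie between 12.7 and 13.1, and *Igf2bp3* is lowest at 0.77.

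Transcript features other than the symbol can be set beside these values. The main transcript of *Ythdf2* has 4129 bases and 5 GGACT, and those of *Ythdf1* and *Ythdf3* have 3184 and 5102 bases and 1 GGACT each. That of *Igf2bp2*, whose lower level in the Ctrl IP passed only narrowly, also has 5. That of *Ythdc1*, the gene with the highest IP/Input in Ctrl, has 0. It has 2960 bases, whereas the merged exons of *Ythdc1* cover 13651. Across 13031 coding genes, IP/Input in Ctrl had a Spearman correlation of 0.25 with the number of GGACT, 0.24 with transcript length and 0.091 with GGACT per kb, and in IR (13795 genes) the values were 0.31, 0.36 and 0.069. These are descriptions across genes of the same libraries, and the number of matches grows with length.

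The pattern of *Ythdf2* over the 12 libraries was most like those of *Sema4c* (Pearson r = 0.971 of log2 CPM), *Bace1* (0.971) and *Pwp2* (0.969) among 10577 coding genes. Like *Ythdf2*, each was higher in the IP and lower in IR than in Ctrl. *Bace1*, for example, averaged 16.5 CPM in the Ctrl Inputs, 56.1 in the Ctrl IPs, 11.2 in the IR Inputs and 31.2 in the IR IPs. Among the readers, *Ythdc1* had r = 0.86 with *Ythdf2*, and the other 8 had negative values between -0.79 (*Ythdc2*) and -0.18 (*Ythdf1*). These correlations are descriptions, since all genes share the 4 groups of libraries.

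Other genes of the m6A pathway were counted in the same fits, where all genes tested were 34.1% higher and 34.6% lower in Ctrl (median 0.018) and 32.1% higher and 30.5% lower in IR (median 0.10). Of 10 other proposed readers, 2 were higher and 6 lower in the Ctrl IP, with a median log2 fold change of -0.62, and 3 were higher and 7 lower in the IR IP, with a median of -0.46. *Eif3a*, a subunit of the translation initiation factor eIF3, had a log2 fold change of 1.69 in Ctrl (edgeR adjusted p = 4.33e-16) and 0.63 in IR (adjusted p = 3.14e-07). *Elavl1*, which encodes the mRNA-stabilizing protein HuR, was at -1.58 in Ctrl (adjusted p = 3.34e-11) and -1.02 in IR.

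Of 12 writer and eraser genes, 6 were higher and 4 lower in the Ctrl IP, and 6 higher and 3 lower in the IR IP, with medians of 0.21 and 0.29, beside the same shares of 34.1% higher and 34.6% lower among all genes in Ctrl and 32.1% and 30.5% in IR. *Rbm15* and *Rbm15b*, which encode subunits that guide the methyltransferase, were higher in both, at 1.79 and 2.32 in Ctrl and 2.79 and 2.14 in IR. *Mettl14*, which encodes a core subunit of the writer, was lower in both (-1.14 and -1.32), and *Mettl3*, the catalytic subunit, was not called in either (0.042 and -0.28). The demethylase *Alkbh5* went from -0.71 in Ctrl to 0.39 in IR, a change of 1.12 (adjusted p = 2.80e-06), while its Input fell by 0.83.

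Of 16 genes of the decay machinery that works with YTHDF2, 3 were higher and 11 lower in the Ctrl IP, with a median of -0.78, and 3 higher and 10 lower in the IR IP, with a median of -0.63, beside 34.1% higher and 34.6% lower (Ctrl) and 32.1% and 30.5% (IR) among all genes. The higher ones were in both conditions *Ddx6*, an RNA helicase of P-bodies (1.65 and 1.33), *Cnot3* (0.76 and 0.18) and the decapping enzyme *Dcp2* (0.33 and 0.37). *Cnot1*, the scaffold of CCR4-NOT to which YTHDF2 binds, was lower, at -1.30 in Ctrl (adjusted p = 3.16e-12) and -0.64 in IR. In the Input, 5 of the 10 other readers, 5 of the 12 writers and erasers and 8 of the 16 decay genes were lower in IR than in Ctrl, while 0, 1 and 2 of them were higher, beside 23.9% lower and 21.0% higher among all genes.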

How the data were processed

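The study's 12 RIP-seq libraries were grouped by condition and fraction from their titles and treatment labels. The authors used Trimmomatic 0.39 for trimming and HISAT for alignment to mm10, and deposited whole-number HTSeq counts per GENCODE M19 gene with no normalization. Strand option and duplicate removal are not given in the sources used here. Summary lines of reads on no gene, ambiguous reads and the like, 30.3 to 56.2% of all reads listed, were kept out of library sizes.

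Symbols and coordinates came from GENCODE M21 on the same build (97.8% of identifiers matched with version). Counts were tested with edgeR 4.0.16 (quasi-likelihood, TMM) in R 4.3.3, keeping genes that reached 10 counts in 3 or more of the libraries compared, with Benjamini-Hochberg adjustment and a threshold of 0.05. The 5 comparisons were IP against Input in Ctrl and in IR, the interaction over 12 libraries, and IR against Ctrl in Input and in IP. These comparisons share libraries. Levels are CPM on the TMM scale. Intervals and errors cover these libraries only, and copies of a molecule cannot be told apart. TMM cannot show a shift shared by most genes.

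All 10 readers were named in every comparison, together with other m6A genes as counts and, for likeness to *Ythdf2*, the 3 coding genes with the highest Pearson correlation over the libraries. Of the other lists, the members named were chosen after their values were seen. The members and lists were chosen with earlier results of these data known. The main transcript was the one with the best APPRIS rank, then support level, then coding length.

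The IP and Input of a pool come from the same lysate per the methods, so blocking on the replicate number was tried as an alternative. Deviations of IP and Input libraries with the same number correlated at -0.023 to 0.040. Values of log2(IP/Input) per pool take equal numbers as the same pool, which the titles do not state. Other alternatives were DESeq2 1.42.0, other scalings, filters, length offsets, thinning, coding genes only, 1 fit of all libraries, and each pool left out. The steps were tested on simulated counts. Replicates differed by more than counting noise. One marker list is not reported here.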

Additional observations from a re-analysis of the deposited data

Results flagged for a closer look

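Each of these 4 reader transcripts was set apart because its log2(IP/Input) differed between Ctrl and IR by the interaction test of edgeR, with no overlap between the 3 pools of each condition. The difference, IR minus Ctrl, was -0.93 for *Ythdc1*, -0.41 for *Hnrnpc*, 1.04 for *Ythdc2* and 0.67 for *Fmr1*. *Ythdc2* rests on the fewest counts, with 74 to 382 per library.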

How the results depend on the processing

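Thinning to the smallest library lost 1 call, that of *Igf2bp2* in Ctrl (-0.32), and *Ythdc2*, with 74 counts in 1 IP, is measured with wide errors. Of 880 alternative values of the 50 gene results, 782 kept their direction and side of the threshold, and 20 of the 50 did so throughout. Of 40 group levels, 14 moved by over 1 SD with library size only.

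For IP against Input in IR, all uniquely aligned reads as library size gave 0 readers higher and 8 lower, and over all genes 3991 higher and 8082 lower against 5993 and 5681 with TMM (in Ctrl 3718 and 8628 against 5943 and 6019), with *Ythdf2* at 0.033, *Ythdf3* at -0.46 and, in Ctrl, *Igf2bp3* at -0.34. The offset for merged exon length gave 1 higher, with *Ythdc1* at -0.14 and *Ythdf3* at -0.082, beside 5277 higher and 6371 lower over all genes. The offset for the main transcript, chosen after seeing the data, gave 1 higher, with *Ythdf2* at 0.26 and *Ythdf3* at -0.40. Over all genes it gave 5141 higher and 6396 lower. *Ythdf3* was at -0.12 with no filter and -0.041 with all libraries in 1 fit. With 1 replicate left out, *Igf2bp2* ranged from -0.40 to 0.019 (without IR replicate 1) and *Ythdf1* from -0.22 to 0.025 (without IR replicate 2). Library size only turned *Igf2bp3* in Ctrl to -0.011.

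For the change with IR, library size only gave 4 higher and 1 lower, with *Ythdf2* at 0.089, and over all genes 2843 higher and 890 lower against 1301 and 2881 with TMM. No filter gave 1 higher, beside 1314 higher and 3161 lower over all genes. The main-transcript offset also gave 1 higher, beside 1069 higher and 2394 lower. *Hnrnpa2b1* turned to -0.0035 with the merged exon offset. Leaving out 1 replicate gave 1 to 3 higher (1 without Ctrl replicate 1 or 2), beside 921 to 1272 higher over all genes. It gave ranges of -0.025 to 0.12 for *Hnrnpa2b1*, -0.067 to 0.35 for *Igf2bp2* and -0.11 to 0.15 for *Ythdf1*.

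For IR against Ctrl in the IP, library size only gave 1 higher and 1 lower, with *Igf2bp3* at 0.072 and *Hnrnpa2b1* at 0.050, and over all genes 2638 higher and 839 lower against 1179 and 1896. Both exon offsets gave 4 lower (over all genes 786 higher and 2976 lower with merged exons, 757 and 2972 with the main transcript). All libraries in 1 fit gave 5 lower (over all genes 2125 higher and 2952 lower). *Igf2bp2* turned to -0.012 with all uniquely aligned reads, -0.0052 with no filter, -0.11 and -0.10 with the merged and main-transcript offsets and, with 1 replicate left out, ranged from -0.14 to 0.21. *Fmr1* was at -0.026 with the merged offset and *Ythdf3* at -0.016 with the main-transcript offset. Leaving out 1 replicate gave 1 to 2 lower, beside 1325 to 1850 lower over all genes. In the Input, all libraries in 1 fit gave 2621 higher and 1500 lower genes against 3557 and 4047. The causes were not tested.

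With the replicate block *Ythdf2* was at 0.74 in Ctrl and 0.49 in IR, both called. The replicate block with the merged exon offset gave 1 reader higher in IR (*Ythdc1* at -0.14, *Ythdf3* at -0.084), 1 higher for the change with IR (*Hnrnpa2b1* at -0.0068), and 5 lower in the IP (*Igf2bp2* at -0.12, *Fmr1* at -0.015). Over all genes the same setting gave 4888 higher and 6396 lower in IR, 956 and 2353 for the change with IR, and 744 and 3198 in the IP. The methods take IP and Input from the same lysate but do not say that equal numbers match, and the check of deviations gave no correlation above 0.040.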
